A study of Mus musculus with 30 samples.

Results

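The peaks described here were open in mouse epiblast stem cells (EpiSCs) and nearly without reads in definitive endoderm (DE) made from them. They were chosen by their ATAC-seq levels, in counts per 1000000 counts of the library (CPM). Each had at least 2 CPM in all 4 EpiSC libraries and at most 0.5 CPM in all 4 DE libraries of strain C57BL/6 (B6), on chromosomes 1 to 19. The rule took 1207 of the 155178 peaks on these chromosomes (0.778%), in a table of 158917 peaks. Because the EpiSC and DE levels chose the peaks, these levels are given as a description and without a test.

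The study measured accessibility with ATAC-seq and RNA with poly(A) RNA-seq in EpiSCs and in DE, and the question addressed by the pair is how the endoderm state differs from its starting cells. The B6 EpiSCs (strain C57BL/6, passages p5-p10) grew on feeder cells with Fgf2, ActivinA and the Wnt inhibitor NVP-TNKS656, and were lifted with collagenase, which was meant to leave the feeders behind. The B6 DE came from such cells, given CHIR99201 with ActivinA for 16 h and then ActivinA with LDN193189 for 24 h, and was sorted for CXCR4+ cells on magnetic beads. The labels also state 46 h in all for that differentiation, which is not the sum of the steps. EpiSCs of strains PWK/PhJ (PWK) and DBA/2J (DBA), of the same passages and culture, were measured too, and B6.129 F1 EpiSCs entered 1 RNA fit. ATAC libraries numbered 4 for B6 EpiSC (replicates 1, 4, 44 and 51), 4 for B6 DE (2, 4, 44 and 51), 2 for PWK (BioRep698 and 1 column without a number, called unnumbered) and 1 for DBA. RNA libraries used numbered 5 for B6 EpiSC, 4 for B6 DE, 3 for PWK, 1 for DBA and 3 for B6.129 F1. The labels call the samples biological replicates but do not say whether they came from separate derivations or cultures, so the p-values measure the spread between these samples.

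EpiSCs are derived from the post-implantation epiblast and keep a primed pluripotent state, held by Pou5f1, Sox2 and Nanog and by FGF and Activin signals. DE is the germ layer that gives rise to gut, liver and pancreas, and its first factors include Sox17, Foxa2 and Gata6. In ATAC-seq a transposase inserts into DNA not wrapped in nucleosomes, so promoters and active enhancers appear as peaks. Promoters are often open in many cell types, while distal enhancers are more often particular to a state.

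The RNA libraries were checked against marker genes. All 7 DE markers (Sox17, Foxa2, Gata6, Cer1, Cxcr4, Hhex, Gata4) were higher in DE, with a summed level of 5600 to 12500 CPM in DE against 30.9 to 319 CPM in EpiSC. Of 7 EpiSC markers, Pou5f1, Sox2, Nanog and Utf1 were lower in DE and Fgf5 and Otx2 were higher, so the summed level overlapped between the groups. Of 7 visceral endoderm markers 5 could be tested and 2 were higher in DE, with a summed level of 15.9 CPM at most. Feeder fibroblast markers moved with the groups: 8 of 10 were lower in DE, and their summed level was lowest in EpiSC replicates 1 (71.8 CPM) and 4 (401 CPM) and highest in replicate 51 (2720 CPM), against 65.8 to 208 CPM in DE. One of the 10, Col3a1, was a neighbour of a peak described here. Its part in the RNA results was not tested, and the main counts are also given with replicates 1 and 4 alone. In the ATAC libraries, the 5 peaks within 1 kb of a start of a feeder marker summed to 26.4 to 33.2 CPM in EpiSC and 15.2 to 19.1 CPM in DE. The ATAC totals were 3751526 counts (DE replicate 51) to 9311622 counts (EpiSC replicate 4), of which 4.39% to 13.6% lay on the mitochondrial genome, and the RNA totals of B6 were 22829536 to 66563933 counts.

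Few of these peaks lay at a gene start, and those that did are shown first, since a start site fixes both the strand and a gene. Of the peaks on autosomes that the promoter table covers, 10 of 1161 peaks (0.861%, 95% Wilson interval 0.469 to 1.58) overlapped a RefSeq promoter, the 250 bases before to 50 after a start. Of peaks open only in DE (the mirrored rule) 0.587% did so, and of peaks with at least 2 CPM in all 8 libraries 23.1%. Sequences are from RefSeq (GRCm38.p6) on the gene's strand, 5′ to 3′, with the bases covered by the peak in capitals. The 4 with the highest CPM in their lowest EpiSC library are given, 3 at gene models without a known product and 1 at Spata31, whose stretch ends at the start.
Gm52878 (chr6:125196484-125196783, plus strand): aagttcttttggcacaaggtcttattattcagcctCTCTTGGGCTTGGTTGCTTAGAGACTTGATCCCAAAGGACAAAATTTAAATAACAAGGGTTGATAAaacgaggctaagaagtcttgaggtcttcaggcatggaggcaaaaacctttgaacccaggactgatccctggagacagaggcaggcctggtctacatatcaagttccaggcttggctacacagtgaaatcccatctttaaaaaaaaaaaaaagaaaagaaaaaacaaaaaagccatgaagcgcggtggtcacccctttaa
Gm19619 (chr5:91283027-91283326, minus strand): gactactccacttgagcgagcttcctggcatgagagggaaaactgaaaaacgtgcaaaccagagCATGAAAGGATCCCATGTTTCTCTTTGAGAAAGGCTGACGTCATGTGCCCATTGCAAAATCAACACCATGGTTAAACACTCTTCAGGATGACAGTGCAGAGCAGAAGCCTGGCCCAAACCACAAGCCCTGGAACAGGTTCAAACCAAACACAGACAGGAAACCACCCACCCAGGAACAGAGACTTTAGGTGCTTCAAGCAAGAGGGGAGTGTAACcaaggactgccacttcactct
Gm46122 (chr9:83316458-83316757, plus strand): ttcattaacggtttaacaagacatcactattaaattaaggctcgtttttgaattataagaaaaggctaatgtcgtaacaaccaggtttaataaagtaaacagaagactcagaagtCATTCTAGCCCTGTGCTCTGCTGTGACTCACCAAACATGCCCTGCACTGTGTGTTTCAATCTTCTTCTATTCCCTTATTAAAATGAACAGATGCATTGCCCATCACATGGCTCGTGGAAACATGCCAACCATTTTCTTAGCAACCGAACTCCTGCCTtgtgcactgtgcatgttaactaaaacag
Spata31 (chr13:64917156-64917405, plus strand): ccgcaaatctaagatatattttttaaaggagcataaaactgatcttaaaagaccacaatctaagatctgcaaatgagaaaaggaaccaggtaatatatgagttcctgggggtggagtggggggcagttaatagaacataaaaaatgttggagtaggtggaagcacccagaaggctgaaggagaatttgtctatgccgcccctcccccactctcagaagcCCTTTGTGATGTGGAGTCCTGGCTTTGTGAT

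The Gm19619 peak covered 215 of the 300 bases and had 7.92, 4.62, 8.24 and 3.11 CPM in EpiSC replicates 1, 4, 44 and 51, against 0.375 CPM in DE replicate 2 and 0 in the other DE libraries. The Gm52878 peak had 3.96 to 5.26 CPM in EpiSC and 0.267 CPM in DE replicate 51 alone. Both the Gm46122 peak (2.8 to 7.59 CPM in EpiSC) and the Spata31 peak (2.75 to 4.62 CPM) had no read in any DE library. In DBA the Gm19619 and Gm46122 peaks both had 0.599 CPM, below the 2 CPM line. Unnumbered PWK had 8.59 and 7.28 CPM there, but PWK BioRep698 had 2.46 and 1.76 CPM, the latter also below that line. None of these 4 genes had an RNA value that could be tested.

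Among the peaks at a start, Il33, which encodes an alarmin cytokine of the interleukin-1 family, was the gene with a testable RNA, and it is named here after its values were seen. Its peak, chr19:29945791-29945859, covered 49 promoter bases and had 3.46, 3.65, 5.74 and 2.33 CPM in EpiSC replicates 1, 4, 44 and 51, and 0.126 CPM in DE replicate 44 alone. The Il33 promoter was the 1 of 11 promoter entries at these peaks that held the octamer ATGCAAAT on either strand, a word bound by POU factors such as Oct4 (the product of Pou5f1). Of all 32851 promoters 1.74% hold it. This start lies inside the Il33 gene body (chr19:29925113-29960718), not at its 5′ end. RNA was counted per gene, so the RNA below is not that of this start alone. The octamer (capitals, reverse strand) lies 80 bases before this start and outside the peak. It is inside the wider peak (260 bp) that overlaps the peak in the table of EpiSC libraries.
Il33 (chr19:29945692-29945721, plus strand): catatcgctccATTTGCATaactttactca
Il33 RNA was 1.74, 13.6, 8.84, 23.5 and 39.9 CPM in EpiSC replicates 1, 2, 4, 44 and 51, and 0.763, 0.232, 0 and 0.622 CPM in DE replicates 2, 4, 44 and 51. The groups did not overlap, and the difference was −5.44 on the log2 scale (SE 1.07, edgeR quasi-likelihood test with Benjamini-Hochberg adjustment, adjusted p = 0.00127). The EpiSC values ran from replicate 1 lowest to replicate 51 highest, as the feeder markers did. With only EpiSC replicates 1 and 4, which hold the least feeder marker RNA, the difference was −3.79 (adjusted p = 0.039). PWK and DBA were counted over that wider peak, where PWK had 21.6 and 15.5 CPM, DBA 7.03 CPM and the B6 libraries 4.14 to 7.99 CPM. PWK was higher than B6 there (log2 1.69, SE 0.313, adjusted p = 0.00494).
Other motifs searched on both strands were AACAAT (SOX), in 3 of the 11 entries and 10.7% of all promoters, TGTTTAC (for FOXA factors), in 2 and 3.65%, AGATAAG (for the family of GATA factors), in 0 and 3.04%, and GGGCGG (SP and KLF), in 1 and 35.7%. The SOX entries include Ipo11-lrrc70 and Lrrc70, which share the same promoter and are counted separately. No motif lay in the promoter bases covered by a peak.

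A further peak stood beside the Mir302 and Mir367 cluster, microRNAs known for high levels in pluripotent cells, and was found after the data were seen in a search for hairpins within 5 kb. The same search gave Mir692-1, Mir6377 and Mir3098, the last of them 641 bases from the Gm52878 peak. The peak, chr3:127547196-127547287, lay in Larp7, whose gene body holds the cluster, 1389 bases from the Mir367 hairpin and 1895 from that of Mir302b. Its level was 4.29, 2.47, 2.5 and 6.99 CPM in EpiSC replicates 1, 4, 44 and 51, against 0.375, 0.277, 0 and 0 CPM in DE replicates 2, 4, 44 and 51. The mature sequences (RefSeq, GRCm38.p6) are shown with bases 2 to 8, the seed, in capitals, because the seeds group the family: those of miR-302b and miR-302d are the same, that of miR-302c is shifted by 1 base, and miR-367 has another.
mmu-miR-302b-3p: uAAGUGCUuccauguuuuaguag
mmu-miR-302d-3p: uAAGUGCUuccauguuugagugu
mmu-miR-302c-3p: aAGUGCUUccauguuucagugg
mmu-miR-367-3p: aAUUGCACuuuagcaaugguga
The RNA libraries do not measure mature microRNAs. The RNA of Larp7, a protein of the 7SK small nuclear ribonucleoprotein, was 205, 122, 215, 166 and 132 CPM in the 5 EpiSC libraries and 127, 65.4, 80.2 and 89.2 CPM in DE, a difference of −0.89 on the log2 scale (SE 0.24, adjusted p = 0.00735). One DE library, replicate 2, lay above the lowest EpiSC library.

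Over all 1207 peaks the median level was 4.78, 3.65, 4.49 and 3.73 CPM in EpiSC replicates 1, 4, 44 and 51, and 0, 0.138, 0 and 0 CPM in DE replicates 2, 4, 44 and 51. In EpiSC 489 peaks had a mean under 4 CPM and 37 a mean over 10 CPM, and peaks open in all 8 libraries had medians of 8.58 to 10.1 CPM. At this depth 2 CPM means at least 13, 19, 9 and 13 counts in the EpiSC libraries, and 0.5 CPM at most 2, 3, 3 and 1 counts in the DE libraries. In all 4 DE libraries together, 183 peaks had 0 counts, 578 had 1 to 3 and 446 had more, with 9 at most. A count of 0 allows a true level of up to 3 counts, a limit that covers counting error only.

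**Figure D1:**
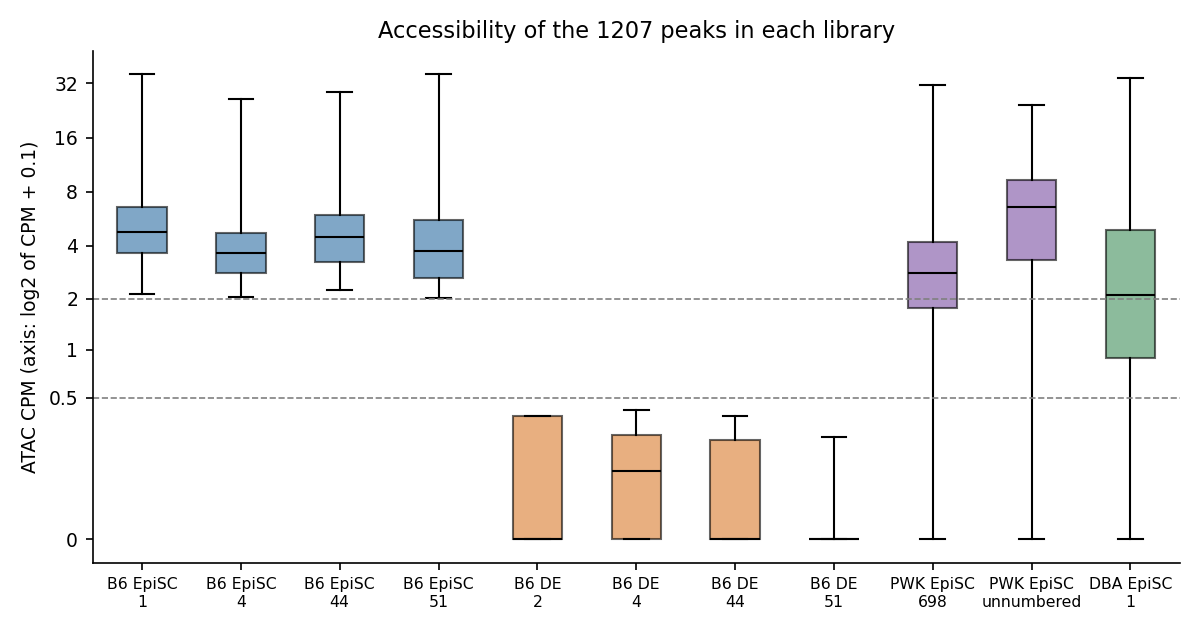
ATAC level (CPM, on a log2 scale of CPM + 0.1) of the 1207 peaks in each B6, PWK and DBA library; boxes span the quartiles, the line is the median, whiskers reach the lowest and highest peak, and dashed lines mark 0.5 and 2 CPM. The B6 boxes are held apart by the rule, while the PWK and DBA libraries, which the rule did not use, reach from 0 to 31.2, 24.1 and 34.1 CPM.

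The thresholds cut through a range with peaks on both sides. Just inside, 199 peaks had a lowest EpiSC level under 2.2 CPM and 96 a highest DE level over 0.4 CPM. Just outside, 291 peaks missed only by a lowest EpiSC level of 1.8 to 2 CPM. Another 1291 missed only by a highest DE level of 0.5 to 0.6 CPM. DE levels moved in whole counts. The highest among the chosen peaks were 0.375, 0.415, 0.379 and 0.267 CPM in DE replicates 2, 4, 44 and 51. The 96 and the 1291 depend on which counts fall in each band, so they cannot be compared with each other. In all, 65290 autosomal peaks had at least 2 CPM in every EpiSC library. The mirrored rule took 1234 peaks open only in DE.

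A library left out of the choice shows how far the label carries. When the peaks were chosen on the other 7 libraries, EpiSC replicates 1, 4, 44 and 51 held 92.7%, 80%, 77.7% and 69.7% of them at 2 CPM or more. DE replicates 2, 4, 44 and 51 held 77.6%, 74.6%, 80.2% and 59.3% at 0.5 CPM or less. At most 4.05% lay on the opposite side in any left-out library. DE replicate 51, the shallowest DE library, decided most: without it the rule took 2036 peaks.

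The peaks were far from starts and of ordinary width. Their median width was 144 bp (64 to 363 bp, 95% interval of the median 141 to 148), against 143 bp for all autosomal peaks, 155 bp for peaks open only in DE and 229 bp for peaks open in all 8 libraries. Width rose with level: over 4 classes of equal size from the lowest to the highest mean EpiSC CPM, the median width was 104, 134, 154 and 184 bp. CPM counts all reads of a peak and was not corrected for width, so level and width are not independent measures. RefSeq gene bodies contained 52.7% of the peak centres (95% Wilson interval 49.9 to 55.5), fewer than the 60.0% (57.2 to 62.7) of peaks open only in DE and the 61.9% (61.4 to 62.4) of peaks open in all 8. Intervals here cover counting error only, and peaks are not replicates.

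The median distance to a RefSeq start was 34.8 kb, against 28.8 kb for peaks open only in DE, 7.80 kb for peaks open in all 8 libraries and 20.3 kb for all autosomal peaks. Only 22 peaks (1.89%) lay within 1 kb of a start, and 39.9% lay beyond 50 kb. In the set open in all 8 libraries 32.6% lay within 1 kb and 17.6% beyond 50 kb. The distal position was thus shared by both state-restricted sets, with 2.18% within 1 kb for peaks open only in DE.

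**Figure D2:**
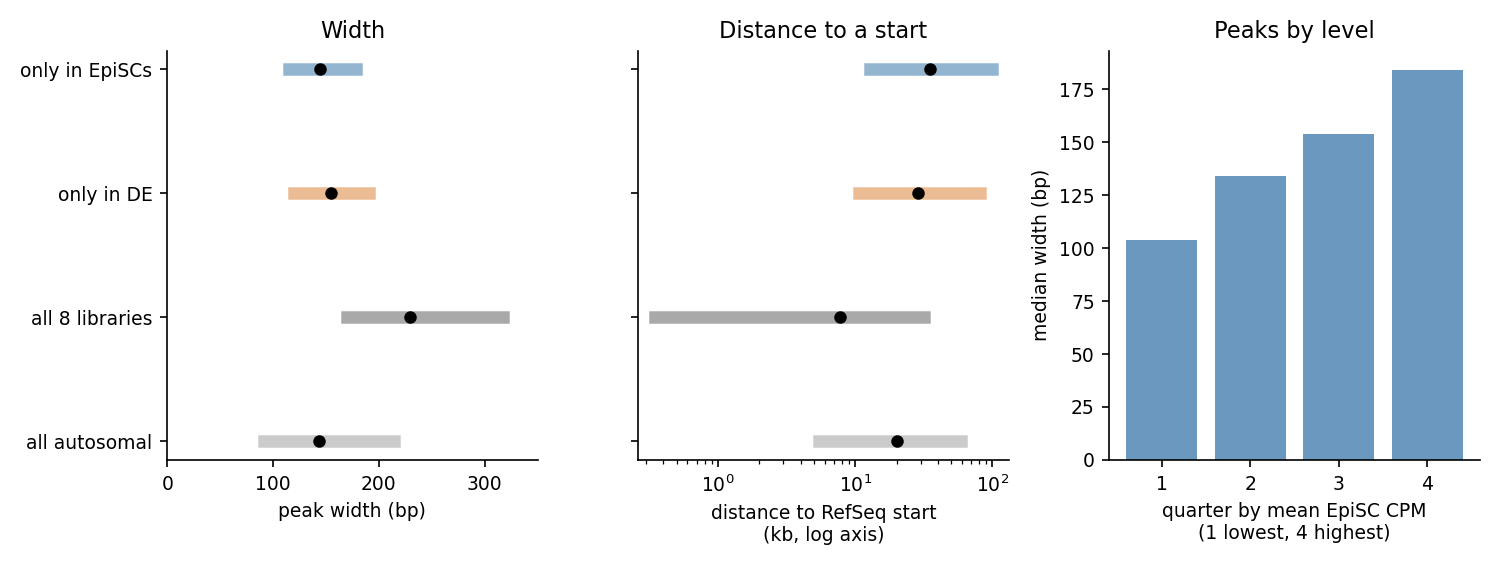
Width in bp (left) and distance to the nearest RefSeq start in kb on a log axis (middle) for 4 sets of peaks, with bars from the first to the last quartile and a dot at the median, and median width of the 1207 peaks in 4 equal classes by mean EpiSC CPM (right). The sets open only in EpiSCs and only in DE sit at 34.8 and 28.8 kb, and the set open in all 8 libraries at 7.80 kb.

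The share of peaks taken by the rule ran from 0.541% on chromosome 17 to 1.0% on chromosome 3. Chromosome 8 gave 50 peaks (0.598%) and, in the mirrored set, 92 peaks (1.10%), the highest share of the 19 chromosomes in that set. Without DE replicate 51 the shares on chromosome 8 were 1.22% and 1.35%, against 1.32% and 1.17% on the other autosomes. Along the chromosomes 1110 peaks stood alone, with no other within 50 kb, and 97 (8.04%) chained in groups of at most 3, against 9.24% for the mirrored set.

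The 3 groups of 3 peaks were at Appbp2, Tnfrsf8 and Sema3a. The densest, chr11:85240289-85250723, held 3 of the 4 peaks of the table over 10.4 kb, at mean EpiSC levels of 3.42 to 8.92 CPM, and lay 5.17 kb from Appbp2, which encodes an adaptor that binds the amyloid precursor protein. A second, chr5:13477828-13527464, held 3 of 4 peaks within Sema3a, an axon guidance ligand. The other, chr4:145271763-145352036, held 3 of 13 peaks and reached into Tnfrsf8, the receptor CD30.

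The 10 peaks with the highest CPM in their lowest EpiSC library had lowest levels of 11.9 to 26.2 CPM, and 3 of them lay more than 50 kb from any gene of the RNA table. The strongest and widest, chr17:87471614-87471977 (363 bp, 24.9 kb from Calm2, a calmodulin gene), had 35.8, 26.2, 28.7 and 35.9 CPM in EpiSC replicates 1, 4, 44 and 51 and 0 to 0.375 CPM in DE. By all RefSeq genes, this peak lay in the gene model Gm30938, 2.77 kb from a RefSeq start, and chr10:92400768-92401011 in the gene model Gm40738. Peaks inside genes of the RNA table lay in Mtr (methionine synthase), Lars2 (mitochondrial leucyl-tRNA synthetase), Ptch1 (the Hedgehog receptor) and Ncam1 (a neural adhesion molecule). Near genes, peaks stood 2.1 kb from Twistnb (an RNA polymerase I subunit) and 16.4 kb from Rras2 (a Ras-family GTPase).

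RNA fell at 3 of the 7 genes of the RNA table named beside these peaks. That count is too small to set against the 30.6% of all tested genes that were lower in DE (edgeR, adjusted p under 0.05). Mtr was 92.0, 74.7, 93.0, 89.0 and 73.7 CPM in the EpiSC libraries and 4.93, 11.8, 5.32 and 11.7 CPM in DE, with no overlap (log2 −3.31, SE 0.305, edgeR adjusted p = 9.96e-06). Ptch1 went from 28.6 to 136 CPM in EpiSC to 15.7 to 26.5 CPM in DE (log2 −1.82, SE 0.435, adjusted p = 0.00417), and Rras2 from 60.0 to 78.8 CPM to 40.8 to 42.6 CPM (log2 −0.74, SE 0.13, adjusted p = 0.000565). These groups did not overlap either. Calm2 (log2 0.09), Lars2 (0.245), Twistnb (−0.28) and Ncam1 (0.62) did not pass the test, with adjusted p of 0.761, 0.579, 0.128 and 0.185, and their groups overlapped.

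The RNA of neighbouring genes was read next, from an assay that the rule did not use. A neighbour is the gene that holds a peak's centre or, failing that, the nearest gene body within 50 kb. Of the 1207 peaks 890 had a neighbour and 317 had none, and 504 lay inside a gene of the RNA table. The 890 peaks had 830 neighbours, of which 769 had 1 peak, 56 had 2, 4 had 3 and 1 had 5. The filter on low counts left 573 of the 830 for the test, so the counts below say nothing of the other 257.

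Of the 573 tested neighbours 234 (40.8%) were lower in DE and 117 (20.4%) were higher, with a median difference of −0.55 on the log2 scale, by the edgeR quasi-likelihood test at an adjusted p under 0.05. Over all 14085 genes tested the shares were 30.6% lower and 31.5% higher, with a median of −0.01. At least 2-fold lower were 197 of the 573 neighbours, and at least 2-fold higher 85, against 3403 and 2973 of all 14085 genes. Neighbours of peaks open only in DE gave 31.6% lower and 28.2% higher, and neighbours of peaks open in all 8 libraries 30.6% and 32.7%. In these bulk libraries a lower level can mean less RNA per cell or fewer cells of a type, which cannot be told apart.

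Gene length moved with this difference. Neighbours had a median length of 88.5 kb, against 23.0 kb for all tested genes with coordinates and 90.4 kb for neighbours of peaks open only in DE. Among genes over 100 kb, 126 of 264 neighbours (47.7%) were lower in DE, and so were 48.0% of all 1910 tested genes of that length. From 20 to 100 kb the shares were 38.0% of 216 neighbours and 35.8% of all. Under 20 kb they were 28.0% of 93 and 20.6%, so for genes above 20 kb the neighbours were near the share of genes of like length. Higher in DE were 12.9% of neighbours over 100 kb against 17.3% of all, 25.9% against 25.5% from 20 to 100 kb, and 29.0% against 41.2% under 20 kb. These classes were added after the data were seen, and of neighbours of peaks open only in DE 36.5% were lower over 100 kb, a difference that was not tested.

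**Figure D3:**
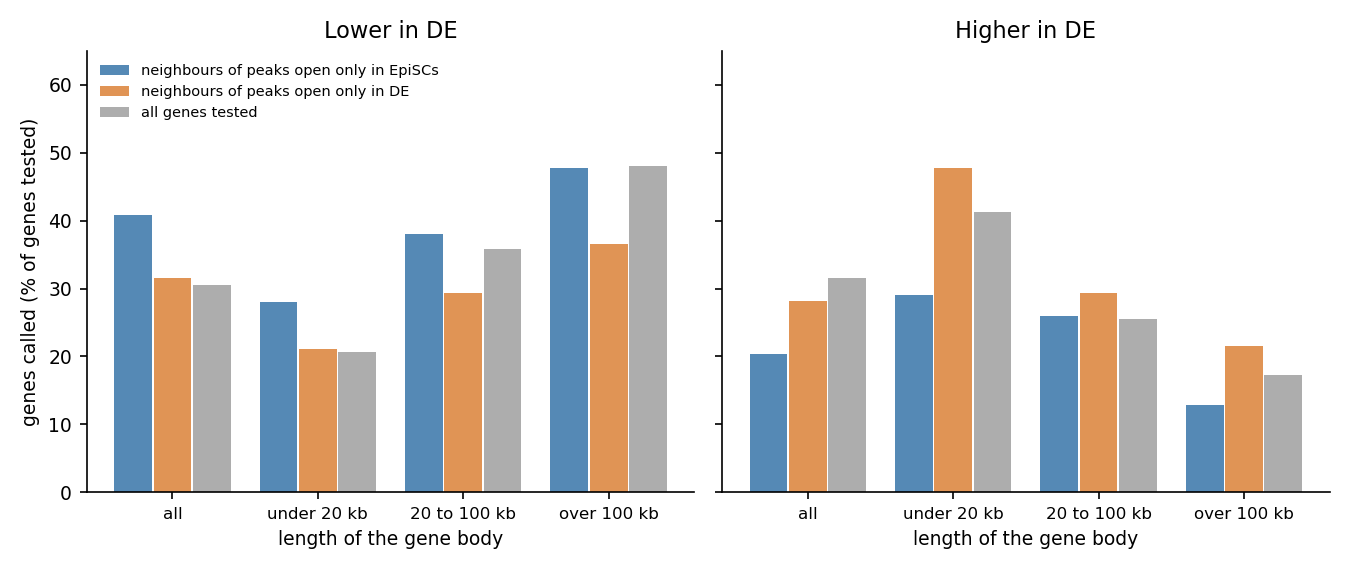
Percent of tested genes that passed the test as lower (left) or higher (right) in DE, for all genes and for 3 classes of gene length; blue, neighbours of peaks open only in EpiSCs, orange, neighbours of peaks open only in DE, grey, all genes tested. Over 100 kb the blue and grey bars for lower genes stand at 47.7% and 48.0%.

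Within the neighbours, 43.0% of 356 genes with a peak inside were lower and 18.3% higher, against 37.3% and 24.0% of 217 genes with a peak outside. With 2 or more peaks 24 of 49 genes (49.0%) were lower and 5 (10.2%) higher. Over all tested genes the shares were 30.6% and 31.5%, and over those above 100 kb 48.0% and 17.3%. The lengths of these 49 genes were not compared with other genes. Of 69 genes that also neighboured a peak open only in DE, 20 (29.0%) were lower, near the 30.6% of all genes. Higher were 13 (18.8%) of the 69, below the 31.5% of all genes. Of the few genes with an end within 2 kb of a peak 31 were tested, and 7 (22.6%) were lower and 8 (25.8%) higher, against 30.6% and 31.5% of all. Only EpiSC replicates 1 and 4, with the least feeder marker RNA, against DE gave 169 of 584 neighbours lower (28.9%, all genes 21.4%) and 73 higher (12.5%, all genes 19.2%).

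Among the neighbours with the most peaks, Sema3a, Tnfrsf8 and Pclo fell in DE. Sema3a, with 5 peaks, was 1.44, 11, 5.45, 14.3 and 25.7 CPM in EpiSC replicates 1, 2, 4, 44 and 51 and 1.88, 0.415, 0.704 and 0 CPM in DE (log2 −4.03, SE 1.18, edgeR adjusted p = 0.0127). Its groups overlapped, its EpiSC values had replicate 1 lowest and replicate 51 highest as the feeder markers did, and with only EpiSC replicates 1 and 4 the difference was −2.30 (adjusted p = 0.235). Tnfrsf8 fell from 2.02 to 9.48 CPM to 0 to 0.273 CPM (log2 −5.84, SE 1.22, adjusted p = 0.00191). That size rests on DE replicate 51, the DE library with any count: without it the DE libraries were at 0 and the fitted value was −10.2, which depends on the prior count. Pclo, a presynaptic scaffold protein, stood at the threshold (log2 −1.31, adjusted p = 0.0495), overlapped between the groups and lost its call in most alternatives.

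Appbp2, beside the densest group of peaks, did not pass the test: it was 138 to 181 CPM in EpiSC and 126 to 190 CPM in DE (log2 0.115, SE 0.15, adjusted p = 0.513). Unc13c, a synaptic vesicle priming factor, was at most 1.33 CPM in any library (log2 −1.08, adjusted p = 0.194). Nrxn3, Nckap5, Fhod3 and Dlg2, with 2 or 3 peaks each, had too few counts for a test. Dlg2, a synaptic scaffold, had 0, 0, 2, 0 and 0 counts in EpiSC and 7, 129, 1 and 69 counts in DE.

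The largest falls among well-expressed neighbours were those of Fat3, L1td1, Lrp2 and Cdk6. Fat3, a protocadherin of the Fat family, was 22.4, 19, 19.4, 26.3 and 25.4 CPM in EpiSC and had 0 counts in all 4 DE libraries, at least 147-fold lower with 3 counts per library as the floor. L1td1, an RNA-binding protein derived from a LINE-1 element and known in pluripotent cells, went from 787, 962, 661, 809 and 891 CPM to 11.2, 3.73, 1.6 and 6.67 CPM (log2 −7.15, SE 0.56, edgeR adjusted p = 3.8e-06). Lrp2, the endocytic receptor megalin, went from 118 to 143 CPM to 1.37 to 2.8 CPM (log2 −5.84, SE 0.23, adjusted p = 2.99e-07). Cdk6, a cyclin-dependent kinase of the G1 phase, went from 113 to 227 CPM to 0.626 to 5.29 CPM (log2 −5.83, SE 0.55, adjusted p = 1.17e-05).

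Other neighbours rose, although their peak lost its reads. Sgk1, a kinase induced by serum and glucocorticoids, rose from 39.3, 50.5, 30.5, 65.3 and 29.4 CPM to 611, 670, 709 and 716 CPM (log2 3.98, SE 0.25, edgeR adjusted p = 1.25e-06). Prss12, a serine protease also called neurotrypsin, rose from 0.343 to 2.14 CPM to 92.0 to 129 CPM (log2 6.34, SE 0.41, adjusted p = 1.3e-06). Lurap1l (log2 4.15, adjusted p = 7.25e-07) and Sec14l4, a lipid-binding protein of the Sec14 family (log2 4.08, adjusted p = 0.000348), rose as well.

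**Figure D4:**
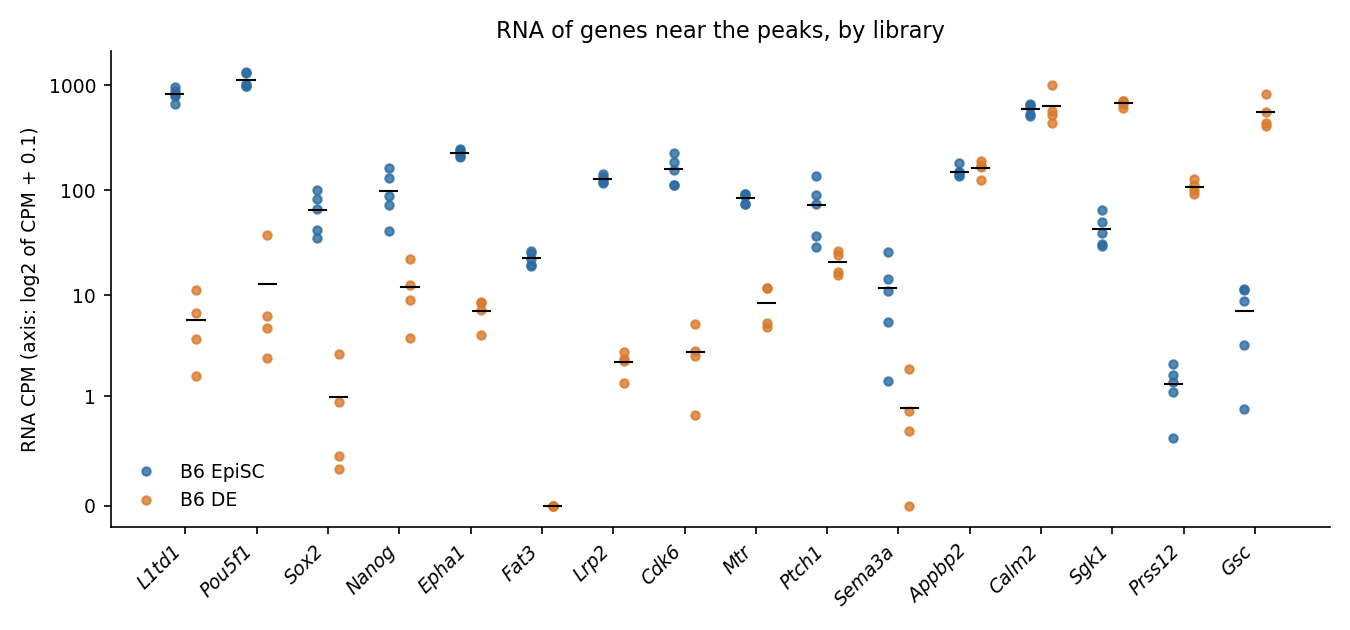
RNA level (CPM, on a log2 scale of CPM + 0.1) of 16 genes near the peaks in each B6 EpiSC (blue, n = 5) and B6 DE (orange, n = 4) library, with a line at the mean. Fat3 has 0 CPM in every DE library, Appbp2 and Calm2 overlap between the states, and Sgk1, Prss12 and Gsc are higher in DE.

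Genes of pluripotency, germ layers and signalling were taken from lists. By the neighbour rule 2 of these genes had a peak. L1td1 had the peak chr4:98743863-98743937, 5.41 kb past the gene, at 2.97, 3.97, 3.99 and 3.73 CPM in EpiSC. In the table of EpiSC libraries it fell inside a peak of 323 bp, with 7.82 to 12.6 CPM in B6, 10.0 and 6.21 CPM in PWK and 10.0 CPM in DBA. The other was Nr5a2, an orphan nuclear receptor of the naive state, with a peak inside at 2.18 to 4.29 CPM and 0 in every DE library, but its RNA had at most 4 counts in any library. No gene of the neuroectoderm, definitive endoderm, primitive streak and mesoderm, or signalling lists was a neighbour.

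Within 200 kb, a distance added after the data were seen, 5 of 29 autosomal genes of primed and general pluripotency had a peak. So did 3 of 12 naive, 2 of 15 neuroectoderm, 3 of 17 definitive endoderm, 0 of 15 primitive streak and mesoderm and 2 of 22 signalling genes. Of all 24547 autosomal genes of the RNA table with coordinates 19.1% had one, so these counts were near or below the background and are not a result about the lists. In RNA, 30.6% of all 14085 tested genes were lower in DE and 31.5% higher, and no list was tested as a set. Of the 30 pluripotency genes tested 18 were lower and 7 higher, with a median of −1.89 on the log2 scale. Of the 16 definitive endoderm genes tested 14 were higher and 0 lower (median 4.04). The other lists gave 1 lower of 7 tested (naive), 5 lower and 2 higher of 9 (neuroectoderm), 5 lower and 3 higher of 11 (streak and mesoderm), and 9 lower and 9 higher of 22 (signalling).

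The strongest peak near a core pluripotency factor was that of Sox2. It lay 106 kb past the gene at chr3:34757871-34758128, on the side where distal Sox2 enhancers of embryonic stem cells are known. It had 16.3, 10.1, 10.2 and 16.2 CPM in EpiSC replicates 1, 4, 44 and 51, 0 to 0.379 CPM in DE, 9.13 and 7.4 CPM in PWK and 9.58 CPM in DBA, so it was open in all 3 strains. Sox2 RNA was 42.0, 82.6, 35.3, 66.2 and 101 CPM in EpiSC and 2.7, 0.862, 0.196 and 0.121 CPM in DE (log2 −6.21, SE 0.87, edgeR adjusted p = 0.000146). No peak open only in DE lay within 200 kb of Sox2.

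Near Nanog, 17.6 kb before the gene, the peak chr6:122689851-122689998 had 8.41, 3.33, 8.24 and 3.11 CPM in EpiSC, 1.05 and 7.4 CPM in PWK and 1.5 CPM in DBA. Nanog RNA fell from 40.7 to 162 CPM to 3.83 to 22.3 CPM (log2 −3.05, SE 0.54, edgeR adjusted p = 0.000684). Near Pou5f1 the peak was weaker, 2.04 to 3.46 CPM in EpiSC, and lay 58.6 kb away, with 2300002M23Rik as its nearest gene. Pou5f1 RNA fell from 982 to 1330 CPM to 2.46 to 37.8 CPM (log2 −6.47, SE 0.85, adjusted p = 9.65e-05). Epha1, an ephrin receptor, had a peak 62.6 kb away, inside Clcn1, and fell from 209 to 246 CPM to 4.07 to 8.54 CPM (log2 −5.01, SE 0.24, adjusted p = 3.89e-07). Within 200 kb of Epha1 lay 1 peak open only in DE, although its RNA fell, and within that distance of Nanog and Pou5f1 there was none.

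Genes of the endoderm could also lie near. Gsc, a homeobox gene of the organizer and early endoderm, had a peak 48.4 kb before it at 4.45, 3.22, 5.24 and 2.18 CPM in EpiSC, while its RNA rose from 0.739 to 11.4 CPM to 414 to 822 CPM (log2 6.30, SE 0.70, edgeR adjusted p = 3.18e-05). One peak open only in DE lay within 200 kb of it as well. Fgfr2, an FGF receptor, had a peak 68.7 kb away and its RNA rose (log2 3.29, SE 0.29, adjusted p = 7.92e-06). Spry4, an inhibitor of FGF signalling and the other signalling gene with a peak within 200 kb, fell (log2 −0.96, SE 0.27, adjusted p = 0.01). Epcam, an epithelial adhesion molecule of the endoderm list, did not pass the test (log2 −2.49, adjusted p = 0.111), and Hnf4a had too few counts. Sox11, a neural SOX factor, had one at 126 kb and its RNA fell (log2 −1.94, SE 0.15, adjusted p = 3.67e-06).

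PWK and DBA EpiSCs, which had no part in the rule, were open at many of these peaks but not at all. Each of the 1207 peaks overlapped a peak of the EpiSC table by at least 1 bp (1206 different ones, 273 with the same coordinates). PWK and DBA reads were counted over the overlapping peak, which can be wider. At 2 CPM or more were 67.4% (95% Wilson interval 64.7 to 70.0) in PWK BioRep698, 84.9% (82.8 to 86.8) in unnumbered PWK and 51.1% (48.3 to 53.9) in DBA. Peaks open in all 8 libraries reached 93.5%, 90.9% and 96.0%, at higher median levels (10.0 CPM in DBA).

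Median levels were 2.81 CPM in PWK BioRep698, 6.56 CPM in unnumbered PWK and 2.10 CPM in DBA. The B6 medians in the same table, 3.84 to 5.01 CPM, were held together by the choice. At peaks open in all 8 libraries the PWK medians were 10.0 and 8.95 CPM and the B6 ones 8.93 to 10.0 CPM. Both PWK libraries were open at 759 peaks (62.9%), DBA at 617, and all 3 libraries at 423. At 254 peaks neither DBA nor both PWK were open. DBA was at 0.5 CPM or less at 113 peaks (9.36%) and both PWK libraries at 33 (2.73%), and no peak was that low in all 3.

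B6 levels at these peaks are high by choice, so a B6 library left out of the choice is the closer standard. Left-out B6 replicates 1, 4, 44 and 51 were open at 94.9%, 85.6%, 80.8% and 75.4% of the peaks chosen without them. For the same 4 choices PWK BioRep698 was open at 66.1%, 63.9%, 64% and 57.7%, and DBA at 51.4%, 45.9%, 49.5% and 39.1%. Unnumbered PWK, at 82.8%, 85.4%, 79.6% and 87.5%, was below the left-out B6 library in 3 of the 4 choices and above it in 1. PWK BioRep698 and DBA were thus below the left-out B6 library each time, but with 2 and 1 libraries strain cannot be told apart from library.

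Openness followed the B6 level. Over the same 4 classes, from the lowest to the highest mean B6 EpiSC CPM, both PWK libraries were open at 40.4%, 57.0%, 70.8% and 83.4% of peaks and DBA at 32.5%, 42.7%, 55.5% and 73.8%. Peaks low in DBA were not low in all other lines. Where DBA had 0.5 CPM or less, unnumbered PWK had a median of 8.0 CPM, PWK BioRep698 of 2.11 CPM and B6 replicates 1, 4, 44 and 51 of 4.45, 2.9, 4.24 and 2.8 CPM. Where DBA had 2 CPM or more, the medians were 4.06 CPM, 3.51 CPM and 4.95, 4.19, 4.49 and 5.28 CPM. The DBA-low peaks were thus lower in B6 replicate 51 and higher in unnumbered PWK than the DBA-open ones.

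**Figure D5:**
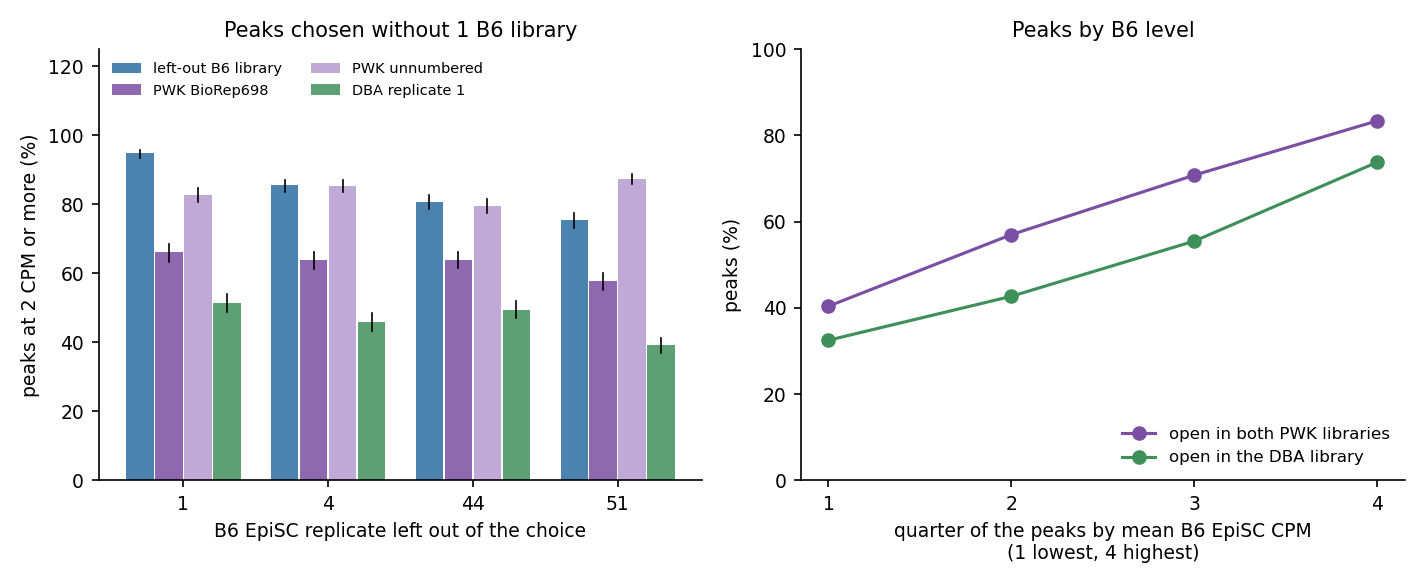
Left, percent of peaks at 2 CPM or more in the left-out B6 library, the PWK libraries and the DBA library, for peaks chosen without 1 B6 EpiSC library (thin lines, 95% Wilson intervals); right, percent of the 1207 peaks open in both PWK libraries or in DBA, in 4 equal classes by mean B6 EpiSC CPM. DBA is the lowest bar in each group, at 39.1% to 51.4%.

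In an edgeR test of PWK against B6 EpiSCs over 137667 peaks, 75 of the 1206 matched peaks (6.22%) were lower in PWK and 6 (0.498%) higher. Over all peaks tested 3.68% were lower and 1.42% higher, and among peaks open in all 8 libraries 5.40% and 0.676%. B6 levels chose these peaks, so a surplus of lower calls in PWK is built into the comparison, and nothing is read from it. The median difference was 0.03 on the log2 scale. Where at least 10 counts in every library were asked for, 13 of 893 were lower (1.46%, all peaks 2.12%).

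Of the 10 strongest peaks 3 were called lower in PWK, against 3.68% of all peaks tested. B6 levels chose these 10 as well, which favours lower calls in PWK, so nothing is read from the count. The peak in Mtr, chr13:12232668-12232890, had 18.6, 20.8, 16.5 and 21.9 CPM in B6 and 23.2 CPM in DBA but 1.23 and 2.15 CPM in PWK (log2 −3.49, SE 0.33, edgeR adjusted p = 2.65e-05). Mtr RNA did not follow: PWK had 81.3, 77.3 and 77.7 CPM, and the difference from B6 was −0.13 (SE 0.10, adjusted p = 0.364). The peak chr8:9868148-9868396, 94.9 kb from Fam155a, had 13.5 to 16.7 CPM in B6, 13.6 CPM in DBA and 1.76 and 1.67 CPM in PWK (log2 −3.15, SE 0.34, adjusted p = 7.47e-05). The strongest peak, near Calm2, had 15.8 and 14.3 CPM in PWK and 34.1 CPM in DBA (log2 −1.09, SE 0.21, adjusted p = 0.00701). Without unnumbered PWK its difference was about as large, −0.96, but did not pass the test (adjusted p = 0.0751). The 7 other strongest peaks did not pass the test, with differences of −0.89 to 0.10.

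RNA of the neighbours was set beside these calls. Of 29 tested neighbours of the 75 lower peaks, 4 were lower and 4 higher in PWK, 13.8% each. Over all 14822 genes tested 14.5% were lower and 12% higher, so the share was near the background. Neighbours of peaks not called gave 70 lower and 96 higher of 588. The 4 well-expressed neighbours with the largest falls in DE were also compared between PWK and B6. L1td1 was lower in PWK (529, 577 and 588 CPM, log2 −0.58, SE 0.11, edgeR adjusted p = 0.00338). So were Lrp2 (26.6 to 38.0 CPM, log2 −2.09, SE 0.16, adjusted p = 6.46e-06) and Cdk6 (49.8 to 57.1 CPM, log2 −1.61, SE 0.22, adjusted p = 0.000477). Fat3 was higher (42.8 to 46.4 CPM, log2 0.94, SE 0.11, adjusted p = 0.000206). In the 1 DBA library these 4 genes were 765, 51.2, 265 and 34.6 CPM. Other named genes passed the PWK test as well. Epha1 (log2 −1.08, edgeR adjusted p = 1.15e-05) and Rras2 (−0.355, adjusted p = 0.0249) were lower in PWK. Fgfr2 (1.23, adjusted p = 0.0281) and Ncam1 (0.724, adjusted p = 0.0493) were higher.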

How the data were processed

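The authors deposited raw counts per peak (ATAC-seq) and per Ensembl gene (RNA-seq). Per the submitters' processing notes the tools include fastp, Bowtie2, MACS2, featureCounts, Salmon and DESeq2, with mm10 as the build. Their roles and settings are not given in the sources used here, nor whether starts count from 0 or 1. Peak coordinates are as the files give them. Of 29555 genes 29270 matched a symbol and 26490 a place in the RefSeq table (GRCm38.p6). In the deposited tables, 17 columns matched no sample here and were not used. The 3 PWK DE samples were not analysed here, since no column matched them.

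CPM in the rule and in peak levels is the count over the column sum. RNA CPM uses TMM-scaled sizes, except in marker sums. Tests used edgeR 4.0.16 in R 4.3.3 (TMM, filterByExpr, robust quasi-likelihood fit, Benjamini-Hochberg over all features, called under 0.05), checked on simulated data. The PWK RNA fit also held B6.129 F1. Joins used Python 3.11.15 with pandas 2.3.3 and intervals scipy 1.17.1. Peaks of the 2 tables were matched by the longest overlap of at least 1 bp. No replicate pair agreed within sampling noise.

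Named were the 10 neighbours with the most peaks, list genes with a peak, the 10 peaks with the highest lowest EpiSC level and the genes beside them, the 4 largest falls and 4 rises among called neighbours with a mean log2 CPM of at least 3 and no overlap, the 4 strongest promoter peaks and the 3 largest groups. One gene that the rule names is not reported here. The members and lists were chosen with earlier results of these data known. Alternatives covered scaling, filters, test, thresholds, distances and single libraries.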

Additional observations from a re-analysis of the deposited data

Results flagged for a closer look

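Among 54 groups of 4 or 5 libraries of named genes and peaks, 5 had a highest or lowest library apart from the others by Dixon's 95% critical value. Chance gives about 1 in 20. Appbp2 RNA in EpiSC replicate 1 was 181 CPM against a group median of 149 CPM. Tnfrsf8 RNA in DE replicate 51 was 0.273 CPM with 0 in the other DE libraries. The peak chr10:92400768-92401011 had 27.3 CPM in EpiSC replicate 51 against a median of 14.2 CPM. The peak chr16:50509592-50509794 had 15.7 CPM in EpiSC replicate 44 (median 12.9 CPM), and chr7:114134059-114134327 had 12.2 CPM in EpiSC replicate 1 (median 15.7 CPM).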

How the results depend on the processing

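The number of peaks depends on the thresholds. It was 222 with at least 4 CPM in EpiSC, 283 with at most 0.25 CPM in DE, 4263 with at most 1 CPM in DE, and 1302 to 2036 with 1 library left out, the highest without DE replicate 51. Their median width was 136 bp with column sums without the mitochondrial genome, 149 bp with TMM-scaled sums, 188.5, 140 and 149 bp under those 3 thresholds, and 133 to 148 bp with 1 library left out. Neighbours within 2 kb of a gene end gave 7 lower and 8 higher in DE. Neighbours within 10 kb gave 77 higher, and the EpiSC libraries with the least feeder marker RNA (chosen after seeing the data) 73 higher. With 1 library left out, 205 to 240 neighbours were lower and 104 to 122 higher. At 4 CPM 285 peaks were open in both PWK libraries and 380 in DBA. Of matched peaks, 13 were lower in PWK with at least 10 counts in every library, and 52 to 70 with 1 library left out. Higher in PWK were 10 with total library sizes, 3 with an overlap of 50% of both peaks, and 2 to 24 with 1 library left out: 2 without B6 replicate 1 or 4, 24 without PWK BioRep698. The other counts and shares stayed within 1.5 times or 1 interval, 101 of 126 alternatives in all. The cause of these shifts was not tested.

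Of 32 single genes and peaks 22 kept direction and call in every alternative run. Without a call in the report, Appbp2 (−0.0404) and Calm2 (−0.13) changed sign with the feeder-poor libraries, Lars2 with the replicate block (−0.0183), and Calm2 without DE replicate 2 (range with 1 library left out −0.22 to 0.231). Differences between PWK and B6 changed sign at the peaks in Lars2 and Ptch1 without unnumbered PWK, and at chr10:92400768-92401011 without B6 replicate 4 (−0.0181) or PWK BioRep698 (−0.0522). With 1 library left out they ran from −0.559 to 0.0617 (Lars2 peak), −0.87 to 0.324 (Ptch1 peak) and −0.0522 to 0.422 (chr10:92400768-92401011). The Calm2 peak lost its call without unnumbered PWK (−0.965, edgeR adjusted p = 0.0751). Without DE replicate 2, Twistnb (−0.42, edgeR adjusted p = 0.0105) and Lars2 (0.55, adjusted p = 0.0274) passed the test.

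Samples that share a replicate number correlated at 0.0988, 0.0891, 0.191 and 0.241 (numbers 2, 4, 44 and 51) in their deviations from group means. Each correlated best with its own number, and pairs of unlike number ran from −0.191 to 0.0367. The main tests left this possible pairing out, and whether the samples are paired was not tested. With the replicate block 215 of 567 neighbours were lower and 103 higher, against 224 and 112 in the same libraries without it. Depth limits single peaks, since 2 CPM is 9 to 19 counts.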
